A study of Mus musculus with 6 samples.

Results

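The genes described here are 10 mouse genes of the response to oxidative and electrophilic stress, most of them known targets of the transcription factor NRF2: Hmox1, Nqo1, Gclm, Gclc, Txnrd1, Slc7a11, Srxn1, Prdx1, Sqstm1 and Keap1. The list was drawn up by name, with earlier results of these data known, and no measured value enters its rule. All 10 were found among the 55359 rows of the count table and among the 11190 genes with enough reads to be tested. The cells were myeloid-derived suppressor cells (MDSCs), immature myeloid cells that restrain T cells. Bone marrow of C57BL/6 mice was cultured for 4 days with 40 ng/ml of GM-CSF and 40 ng/ml of IL-6, after which an isolation kit was used to take polymorphonuclear MDSCs. The mtDNA group (3 libraries) was transfected with mitochondrial DNA at 250 ng/ml with a lipid reagent for 12 h, and the blank group (3 libraries) received no mtDNA. The labels do not state whether blank cells saw the reagent, so the DNA and its carrier cannot be told apart. They also name neither mice nor cultures, and the spread behind each p-value is that between libraries and may be technical.

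NRF2, encoded by Nfe2l2, is held in the cytoplasm by KEAP1, an adaptor that passes it to the ubiquitin ligase CUL3 for destruction. Oxidants and electrophiles modify KEAP1, and the autophagy receptor p62, the product of Sqstm1, can displace NRF2 from it. NRF2 then pairs with small MAF proteins on antioxidant response elements of genes for glutathione synthesis, the thioredoxin system, heme breakdown and quinone reduction, where BACH1 competes as a repressor. In myeloid cells the pathway is known for limiting oxidative damage and for damping inflammatory and interferon genes.

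Library totals ranged from 4144481 to 4911103 counts in mtDNA libraries and from 4018360 to 4796800 in blank libraries. The 10 genes had 227 to 19422 reads in a library, far above the 3 reads (0.601 to 0.767 CPM, reads scaled to a common library size) taken as the floor of detection, which covers counting error only. Interferon-stimulated genes marked the transfected libraries: Isg15 averaged 238.2 ± 34.5 CPM in mtDNA and 12.4 ± 4.05 CPM in blank libraries (SD, n = 3 each), and Rsad2 656.6 ± 93.5 and 10.5 ± 5.98 CPM. The library mtDNA 1 lay apart from the other mtDNA libraries on the second principal component (8.97% of the variance), and calls that ended without it among the 10 genes and the named list genes are given with that value. The labelled cell type was only partly matched by its markers. Neutrophil genes such as S100a8 (1768 ± 123 CPM in mtDNA and 1698 ± 65.3 CPM in blank libraries) and Mmp8 (2558 ± 52.4 and 2545 ± 17.5 CPM) were abundant, but Ly6g, the defining marker of the polymorphonuclear subset, stood at 5.81 ± 1.14 and 4.87 ± 0.954 CPM. The macrophage receptor gene Csf1r reached 1552 ± 3.52 CPM in mtDNA and 1424 ± 16.0 CPM in blank libraries. Levels differed widely among the neutrophil markers and among the monocyte and macrophage markers. The neutrophil genes Retnlg and Cxcr2 averaged 2.96 and 36.7 CPM in mtDNA and 3.45 and 43.2 CPM in blank libraries. The macrophage markers Cx3cr1 and C1qa averaged 2.17 and 11 CPM in mtDNA and 2.34 and 9.99 CPM in blank libraries.

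Promoter sequence is shown for 4 of the genes because it carries the kind of element through which NRF2 and its competitors act, and because these genes went different ways. RefSeq promoters (build GRCm38.p6, an earlier build than the GRCm39 of the counts) were found for 8 of the 10 genes, not for Hmox1 or Gclc. The 250 bases before each start were searched on both strands for TGACNNNGC, the core of the antioxidant response element, and for TGAGTCA, the AP-1 site that many such elements contain. The second motif was added after these promoters had been read, and a match of the first can overlap the second. Capitals below mark the matches, as written on the gene's strand. The sequences are Gclm at chr3:122245307-122245556, Txnrd1 at chr10:82858956-82859205 (the second of its 3 listed starts), Prdx1 at chr4:116685349-116685598 and Srxn1 at chr2:152105274-152105523, all on the plus strand.
Gclm: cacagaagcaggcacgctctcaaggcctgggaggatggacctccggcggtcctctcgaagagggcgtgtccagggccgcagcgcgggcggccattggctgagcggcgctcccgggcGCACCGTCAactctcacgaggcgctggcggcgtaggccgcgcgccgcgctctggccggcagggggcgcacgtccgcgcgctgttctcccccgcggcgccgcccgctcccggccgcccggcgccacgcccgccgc
Txnrd1: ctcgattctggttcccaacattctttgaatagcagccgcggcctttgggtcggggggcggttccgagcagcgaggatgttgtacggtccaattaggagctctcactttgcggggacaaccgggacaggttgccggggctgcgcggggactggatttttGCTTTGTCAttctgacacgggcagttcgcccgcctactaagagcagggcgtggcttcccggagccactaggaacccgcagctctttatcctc
Prdx1: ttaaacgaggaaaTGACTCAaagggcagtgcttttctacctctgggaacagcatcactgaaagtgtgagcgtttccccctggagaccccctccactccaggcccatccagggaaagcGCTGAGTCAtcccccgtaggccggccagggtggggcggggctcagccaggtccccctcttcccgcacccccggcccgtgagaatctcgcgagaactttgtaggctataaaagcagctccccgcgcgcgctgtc
Srxn1: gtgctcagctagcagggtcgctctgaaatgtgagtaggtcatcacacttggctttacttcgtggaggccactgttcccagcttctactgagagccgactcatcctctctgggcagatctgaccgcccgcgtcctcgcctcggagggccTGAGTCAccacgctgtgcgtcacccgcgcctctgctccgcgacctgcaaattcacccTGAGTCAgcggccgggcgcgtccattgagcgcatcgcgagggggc
TGACNNNGC stood in the window of Gclm, of Prdx1 and of the second start of Txnrd1, and TGAGTCA had 2 matches each in Prdx1 and Srxn1. In Prdx1 the match 133 bases before the start holds both motifs in overlap. The windows of Nqo1, Slc7a11, Sqstm1 and Keap1 and those of the other starts of Txnrd1 held neither, which says nothing of elements farther away. Of all 32851 promoters of this length in the table, 10.2% held TGACNNNGC, 4.46% held TGAGTCA and 0.724% held both. Gclm and Txnrd1, each with TGACNNNGC, were lower in mtDNA libraries, and Prdx1 was higher. Outside the 10 genes, TGACNNNGC also stood in the windows of Mafk, which rose, Mafg, which fell, and Nfe2l2, which was not called. The window of Bach1, which rose, held neither motif. Srxn1, with TGAGTCA but no exact TGACNNNGC, did not pass the test, as given below. Its match 45 bases before the start reads on as TGAGTCAGC, which differs from TGACNNNGC only by G in place of C. The search therefore does not show that Srxn1 lacks such an element.

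After mtDNA transfection the 10 genes were split between rises, falls and uncalled differences. Of the 10, 3 rose (Keap1, Sqstm1 and Prdx1), 3 fell (Gclm, Gclc and Txnrd1) and 4 did not pass the test (Hmox1, Nqo1, Slc7a11 and Srxn1), in edgeR's quasi-likelihood test with adjusted p under 0.05 over all tested genes. Across all tested genes 17.8% were called, 11.9% as rises and 5.98% as falls. Both splits depended on the scaling. With upper-quartile factors the 10 genes had 1 rise and 6 falls and all tested genes 970 and 1504, and with library totals alone 1 and 6 and 861 and 2356, beside 1327 and 669 over all genes with the TMM factors used here. Median-ratio factors stayed near the TMM split, with 2 rises and 3 falls among the 10 genes and 1318 and 665 over all tested genes. The changes were small, at most 1.35-fold for a rise (Keap1) and to 0.755 of the blank level for a fall (Gclc). DESeq2 called 1 rise (Keap1) and 3 falls among the 10, beside 8.50% of all genes it tested, 7.17% as rises and 1.34% as falls. A test against a fold of 1.2 called 0 rises and 0 falls among the 10 in edgeR (1 and 1 at an unadjusted p under 0.05), beside 5.27% and 0.492% of all tested genes. Their median log2 fold change was -0.09, beside -0.01 for all tested genes. The groups did not overlap for 6 of the 10, with mtDNA above for 2 and below for 4, beside 17.9% and 15.6% of all tested genes (33.5% in either direction). In bulk RNA, fewer cells of a type and less RNA per cell cannot be told apart. Some monocyte and macrophage markers moved with the groups: 7 of 15 tested rose, 0 fell and 8 were not called. Their summed level was 4934 to 5236 CPM in mtDNA and 3948 to 4042 CPM in blank libraries, and their part in the results was not tested. The markers moved unevenly. Fcgr1 had 326.9 CPM in mtDNA and 56.4 CPM in blank libraries, and Ly6c2 967.9 and 537.6 CPM. Adgre1, Mrc1, C1qa, C1qc, Spic and Cx3cr1 were among those not called. Dendritic cell markers (2 of 7 rose, with sums of 2377 to 2569 CPM in mtDNA and 2030 to 2093 CPM in blank libraries) and basophil, mast cell and eosinophil markers (1 of 11 rose and 1 fell, 356.4 to 371.5 and 320.4 to 342.8 CPM) were also separate in their sums, and their part was not tested. Over all tested genes 11.9% rose and 5.98% fell, and the basophil, mast cell and eosinophil counts were near these shares. The 2 dendritic cell rises were Bst2 (265.1 CPM in mtDNA and 64.5 CPM in blank libraries) and H2-Aa (1429 and 1274 CPM). Itgax (429.6 and 425.1 CPM), Flt3, Zbtb46, Ccr7 and Clec9a were not called. Among neutrophil markers 1 of 16 rose, with overlapping sums of 8980 to 9696 CPM in mtDNA and 8628 to 9044 CPM in blank libraries.

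**Figure D1:**
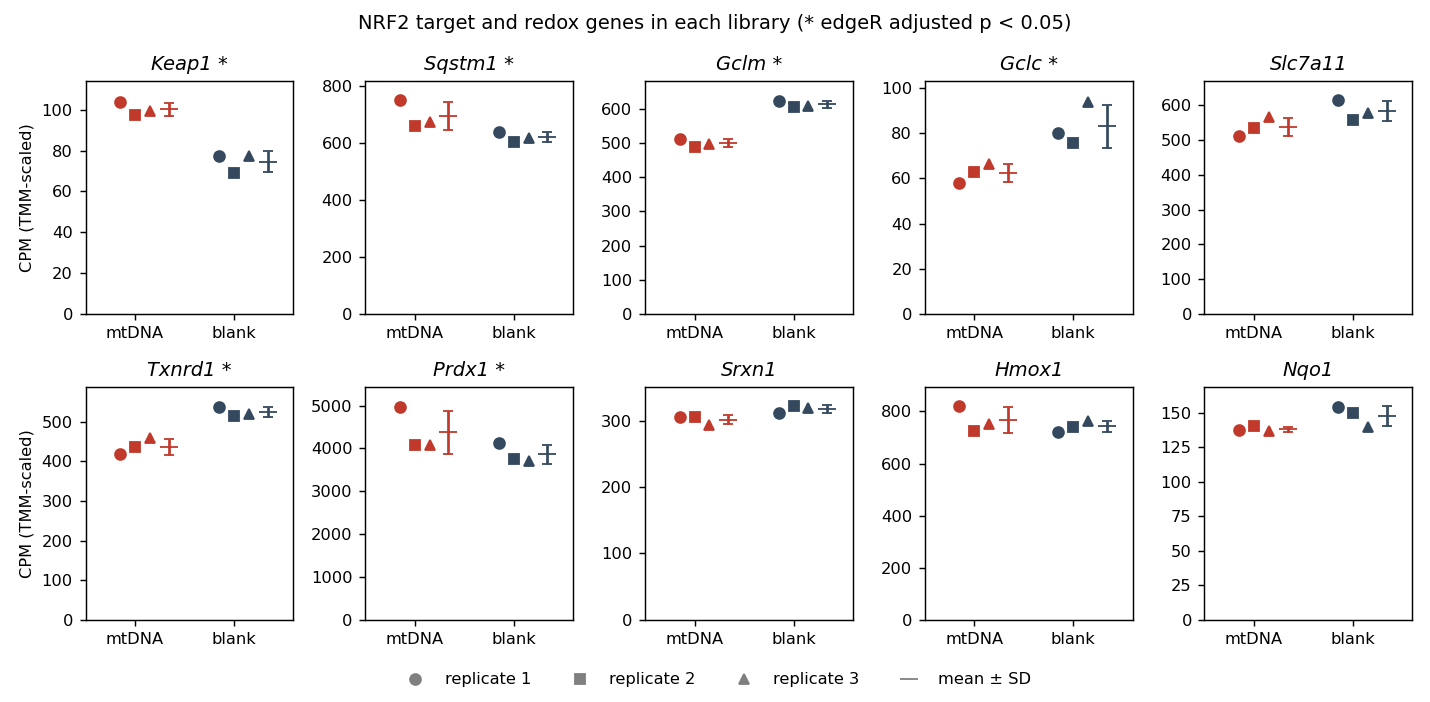
CPM (TMM-scaled, linear axes from 0) of the 10 genes in each of the 3 mtDNA and 3 blank libraries, with mean ± SD; an asterisk marks an edgeR adjusted p under 0.05. Keap1 lies higher in every mtDNA library than in any blank library, Gclm, Gclc and Txnrd1 lie lower, and Hmox1 overlaps between the groups.

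Among the regulators of NRF2, Keap1 (ENSMUSG00000003308), the NRF2-binding adaptor, had 104.0, 97.7 and 99.5 CPM in mtDNA libraries, against 77.5, 68.9 and 77.6 CPM in blank libraries. All mtDNA libraries lay above all blank libraries, and the log2 fold change was 0.43 ± 0.070 (SE; edgeR adjusted p = 8.91e-05). The rise of Keap1 kept its call with upper-quartile factors (0.35) and with library totals alone (0.31). It ended only in the test against a fold of 1.2 (adjusted p = 0.0553, within 7.1e-07 to 0.0553 over 17 alternatives). Keap1 shares 8.33% of its 75-base windows with the antisense gene Gm16754, which had 16 reads over the 6 libraries against 2331 for Keap1. Sqstm1 (ENSMUSG00000015837), which encodes the autophagy receptor p62, had 749.5, 660.1 and 672.9 CPM in mtDNA libraries, against 637.6, 602.3 and 618.6 CPM in blank libraries. The groups did not overlap, but the gap between mtDNA 2 and blank 1 was small beside the lead of mtDNA 1. The log2 fold change of Sqstm1 was 0.16 ± 0.052 (edgeR adjusted p = 0.0335). Its call ended in DESeq2 (adjusted p = 0.0598), with upper-quartile factors (0.241) and library totals (0.524), and without mtDNA 1 (log2 0.10, adjusted p = 0.166), blank 2 (0.107) or blank 3 (0.105), within a range of 0.0135 to 1 over 17 alternatives. Mrnip, on the opposite strand, shares 19.6% of the windows of Sqstm1 and had 70 reads over the 6 libraries, against 17499 for Sqstm1.

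Nfe2l2 itself, which is not among the 10, had 312.8, 307.6 and 308.2 CPM in mtDNA libraries, against 301.6, 299.4 and 284.8 CPM in blank libraries. Those groups did not overlap either, yet the log2 fold change of 0.07 ± 0.051 did not pass (edgeR adjusted p = 0.41), and its sign turned with upper-quartile factors (-0.01) and library totals (-0.05). Keap1 and Nfe2l2 in each library, as reads per exon length, stood in a ratio of 0.269, 0.257 and 0.261 in mtDNA libraries, against 0.208, 0.186 and 0.220 in blank libraries. There was thus more Keap1 RNA for each Nfe2l2 RNA in each mtDNA library than in any blank library, a ratio that the scaling between libraries cannot alter.

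In the list of NRF2 control genes, 3 of 13 tested members rose (Keap1, Bach1 and Mafk), 1 fell (Mafg) and 9 were not called, beside 11.9% and 5.98% of all tested genes. The list median was 0.07, and with library totals 2 rose and 3 fell. Bach1, the repressor that competes for the same elements, had 166.6, 161.1 and 174.6 CPM in mtDNA libraries, against 138.2, 133.3 and 148.7 CPM in blank libraries, without overlap (log2 0.26 ± 0.061, edgeR adjusted p = 0.00401; 0.14 and adjusted p = 0.0906 with library totals, within 0.00165 to 1). Of the small MAF genes, whose products lack an activation domain and pair with both NRF2 and BACH1, Mafk rose by log2 0.56 ± 0.10 (edgeR adjusted p = 0.000336). Mafk had 48.0, 41.1 and 40.2 CPM in mtDNA libraries, against 30.6, 29.3 and 27.5 CPM in blank libraries, the groups far apart. Mafg moved the other way, with 140.3, 146.1 and 145.4 CPM in mtDNA libraries, against 179.2, 162.9 and 162.3 CPM in blank libraries. It fell by 0.22 in log2 terms (edgeR adjusted p = 0.0113). DESeq2 did not call Mafg (adjusted p = 0.0612), nor did edgeR once blank 1 was left out (0.0738), within 0.000213 to 1 over its alternatives. Some exons of Mafg overlap Sirt7 on the same strand, over 124 bases. The 2 genes share 1.03% of the 75-base windows of Mafg, so a small part of its count is uncertain. Acod1, whose enzyme makes itaconate, a metabolite that modifies KEAP1, rose by log2 2.16 ± 0.097, with 442.3 ± 62.5 CPM in mtDNA and 99.2 ± 17.1 CPM in blank libraries (edgeR adjusted p = 1.09e-13).

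**Figure D2:**
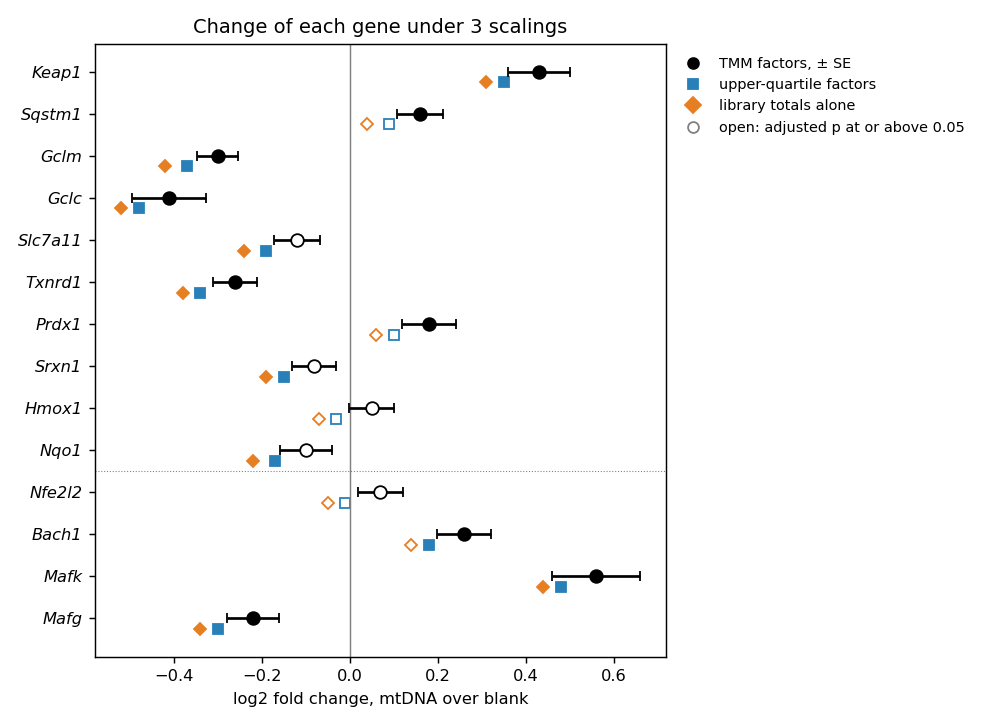
log2 fold change (mtDNA over blank) of the 10 genes and, under the dotted line, of Nfe2l2, Bach1, Mafk and Mafg; black circles with TMM factors ± SE, blue squares with upper-quartile factors, orange diamonds with library totals, filled where the adjusted p is under 0.05. Keap1, Gclm, Gclc and Txnrd1 are filled under all 3 scalings, while Sqstm1 and Prdx1 are filled with TMM factors only.

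Both subunits of the first enzyme of glutathione synthesis fell, while the cystine importer did not pass the test. Gclc (ENSMUSG00000032350) encodes the catalytic subunit of glutamate-cysteine ligase, the rate-limiting enzyme of glutathione synthesis. It had 58.0, 63.0 and 66.3 CPM in mtDNA libraries, against 80, 75.7 and 93.8 CPM in blank libraries, all mtDNA libraries lying lower. Gclc fell by 0.41 in log2 terms (SE 0.084, edgeR adjusted p = 0.00129). Gclm (ENSMUSG00000028124), which encodes the modifier subunit of the same enzyme, had 513.1, 488.4 and 499.3 CPM in mtDNA libraries, against 625.5, 607.9 and 609.0 CPM in blank libraries. The libraries of each group lay close together and the groups far apart, with a fall by 0.30 (SE 0.047, edgeR adjusted p = 6.05e-05). The calls of Gclm and Gclc held in 16 of 17 alternatives each, the exception being the test against a fold of 1.2, and DESeq2 gave adjusted p of 3.77e-07 and 0.00698. Per exon length, the ratio of Gclm to Gclc reads was 5.30, 4.64 and 4.51 in mtDNA libraries, against 4.68, 4.80 and 3.89 in blank libraries, so the balance of the subunit RNAs overlapped between the groups.

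Slc7a11 (ENSMUSG00000027737), the cystine importer that feeds glutathione synthesis, had 512.3, 534.2 and 566.0 CPM in mtDNA libraries, against 615.2, 557.0 and 577.5 CPM in blank libraries. The groups overlapped through mtDNA 3 and blank 2, and the log2 fold change of -0.12 ± 0.052 did not pass (edgeR adjusted p = 0.136). It passed with the trend on GC content removed (-0.21, adjusted p = 0.00429), with upper-quartile factors (-0.19, 0.0109) and with library totals (-0.24, 0.00185), within a range of 0.00185 to 1 over 17 alternatives. Slc3a2, which encodes the heavy chain that partners Slc7a11 and other amino acid carriers, rose by log2 0.24 ± 0.053 (edgeR adjusted p = 0.00272; 0.12 and 0.0811 with library totals, within 0.000205 to 1).

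Over the wider list of glutathione synthesis and use, 7 of 26 tested members fell, 2 rose and 17 were not called. This stood beside 5.98% and 11.9% of all tested genes, with a list median of -0.10. Among the falls are those of Gclc and Gclm, given above. DESeq2 called 5 falls and 2 rises, and with library totals there were 11 falls and 1 rise. Gss, which encodes glutathione synthetase, the enzyme after glutamate-cysteine ligase, had 21.9 ± 2.34 CPM in mtDNA and 31.8 ± 2.25 CPM in blank libraries with a fall by 0.54 in log2 terms (edgeR adjusted p = 0.0016). Some exons of Gss overlap Acss2 on the opposite strand. Glrx5, a mitochondrial glutaredoxin of iron-sulfur cluster assembly, fell by 0.59 (22.2 ± 2.41 CPM in mtDNA and 33.6 ± 1.90 CPM in blank libraries, edgeR adjusted p = 0.0005). The other falls were those of Gsta3 and Gstp1, both glutathione transferases, and of Abcc1, an exporter of glutathione conjugates (log2 -0.51, -0.30 and -0.16, edgeR adjusted p of 0.0275 to 0.0404). DESeq2 did not call Gsta3 or Gstp1 (adjusted p = 0.262 and 0.287), and each of the 3 falls ended in 4 of the 6 omissions of a library (adjusted p of 0.0506 to 0.195). Without mtDNA 1, Gstp1 had an adjusted p of 0.121 and Abcc1 of 0.0506. Over their alternatives the adjusted p ran from 0.0057 to 0.262 for Gsta3, 0.00401 to 0.826 for Gstp1 and 0.00019 to 1 for Abcc1. Gstp1 shares 57.7% of its windows with Gstp2 and Gstp-ps, so its count is uncertain. Glrx, the cytosolic glutaredoxin, moved against these with 197.0 ± 10.2 CPM in mtDNA and 136.7 ± 13.3 CPM in blank libraries (log2 0.52 ± 0.067, edgeR adjusted p = 4.29e-06). Gsr, the glutathione reductase, did not pass (log2 -0.10 ± 0.057, edgeR adjusted p = 0.272), but did with upper-quartile factors (0.0338) and library totals (0.00899), within 0.00899 to 1.

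In the thioredoxin system the reductase gene fell, a peroxidase gene rose narrowly and the sulfiredoxin gene did not pass the test. Txnrd1 (ENSMUSG00000020250), the cytosolic thioredoxin reductase, had 418.3, 435.9 and 458.7 CPM in mtDNA libraries, against 538.0, 514.4 and 520.9 CPM in blank libraries. Every mtDNA library lay below every blank library, and Txnrd1 fell by 0.26 in log2 terms (SE 0.050, edgeR adjusted p = 0.000592; DESeq2 adjusted p = 8.51e-05). Prdx1 (ENSMUSG00000028691), an abundant peroxidase that uses thioredoxin, had 4963, 4091 and 4073 CPM in mtDNA libraries, against 4119, 3763 and 3705 CPM in blank libraries. The library mtDNA 1 stood well above all others, and mtDNA 2 and 3 lay just under blank 1. The log2 fold change of 0.18 ± 0.061 passed narrowly (edgeR adjusted p = 0.0434), and the call ended in 10 of 17 alternatives (adjusted p of 0.000287 to 1). Without mtDNA 1 it was 0.08 (adjusted p = 0.262), without blank 2 0.16 (0.122), without blank 3 0.15 (0.202), and in DESeq2 0.18 (0.47). Prdx1 shares 5.63% of its windows with Gm21399 and Gm7204. Srxn1 (ENSMUSG00000032802), the sulfiredoxin that restores overoxidised peroxiredoxins, had 305.9, 304.6 and 293.2 CPM in mtDNA libraries, against 311.2, 322.0 and 318.5 CPM in blank libraries. The groups were separate but close, and the log2 fold change of -0.08 ± 0.050 did not pass (edgeR adjusted p = 0.344), while it passed with upper-quartile factors (-0.15, 0.0349) and library totals (-0.19, 0.00582), within a range of 0.00582 to 1.

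Of the 20 tested genes of the thioredoxin and peroxiredoxin list, 4 rose and 2 fell, beside 11.9% and 5.98% of all tested genes. The list median was -0.07. Prdx1 is among these rises and Txnrd1 among these falls, both given above. DESeq2 called 1 rise and 1 fall in this list, and with library totals 1 rose and 4 fell. Msrb1, a selenoprotein that repairs oxidised methionine, had 625.1 ± 41.5 CPM in mtDNA and 504.2 ± 7.25 CPM in blank libraries (log2 0.31 ± 0.052, edgeR adjusted p = 0.000123). Txnip, an inhibitor of thioredoxin, and Prdx2, a cytosolic peroxiredoxin, had log2 0.17 and 0.19 (edgeR adjusted p = 0.0308 and 0.0424). Neither passed in DESeq2 (adjusted p = 0.133 and 0.149). Txnip shares 16.7% of its windows with Gm15441, and Prdx2 17.4% with Junb, Tdpx-ps1 and Rnaseh2a. Prdx2 stood at 225.9 CPM in mtDNA 1, against 191.3 and 195.4 CPM in the other mtDNA libraries and 170.9 to 183.1 CPM in blank libraries. Without mtDNA 1 its log2 fold change was 0.11 (adjusted p = 0.25), and its call also ended without blank 1 (0.14), blank 2 (0.0516) or blank 3 (0.097), within 0.025 to 1. Txn2, the mitochondrial thioredoxin gene, was lower by log2 -0.21 ± 0.067 (edgeR adjusted p = 0.035, DESeq2 adjusted p = 0.229, within 0.000993 to 1 over its alternatives). Its call also ended without mtDNA 2 (0.084), mtDNA 3 (0.113), blank 1 (0.149) or blank 2 (0.0858). That of Txnip ended in 5 of the 6 omissions of a library, with adjusted p of 0.0513 (without mtDNA 1) to 0.117, within 0.0219 to 1 over all alternatives.

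Hmox1 (ENSMUSG00000005413), the heme oxygenase often read as the sentinel NRF2 target, had 821.8, 726.3 and 752.5 CPM in mtDNA libraries, against 720.4, 741.8 and 764.7 CPM in blank libraries. The groups overlapped widely and only mtDNA 1 lay above all blank libraries. The log2 fold change of 0.05 ± 0.051 did not pass (edgeR adjusted p = 0.595), and its sign turned without mtDNA 1 (-0.01), with upper-quartile factors (-0.03) and with library totals (-0.07). Hmox2, the constitutive heme oxygenase, had 185.0, 164.1 and 171.0 CPM in mtDNA libraries, against 126.2, 124.2 and 119.6 CPM in blank libraries, and rose by log2 0.49 ± 0.061 (edgeR adjusted p = 2.84e-06). Hmox2 shares 45.4% of its read-length windows with Cdip1, so its count is uncertain. In the list of heme and iron handling, Hmox2 was the single rise among 21 tested genes, and Slc48a1, a heme transporter of endolysosomes, the single fall (log2 -0.15, edgeR adjusted p = 0.0359), beside 11.9% and 5.98% of all tested genes. With library totals 1 rose and 4 fell. The fall of Slc48a1 ended in DESeq2 (adjusted p = 0.0947) and in 5 of the 6 omissions of a library (adjusted p of up to 0.139, within 0.000234 to 1 over all alternatives). Fth1, the ferritin heavy chain of the iron store that NRF2 is known to raise, had log2 0.10 ± 0.041 (edgeR adjusted p = 0.111), and -0.02 with library totals.

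Nqo1 (ENSMUSG00000003849), the quinone reductase used as a marker of NRF2 activity, had 137.2, 140.1 and 136.7 CPM in mtDNA libraries, against 154.0, 149.5 and 139.7 CPM in blank libraries. The groups met at mtDNA 2 and blank 3, and the log2 fold change of -0.10 ± 0.059 did not pass (edgeR adjusted p = 0.288). It passed with upper-quartile factors (-0.17, 0.04) and library totals (-0.22, 0.00952), within a range of 0.00952 to 1. Of 18 tested genes of quinone and xenobiotic detoxification 2 rose, a share near the 11.9% of all tested genes. These were Akr1a1, an aldehyde reductase (1795 ± 167 CPM in mtDNA and 1451 ± 46.4 CPM in blank libraries, log2 0.31 ± 0.055, edgeR adjusted p = 0.000261), and Nqo2, a relative of Nqo1 (log2 0.34 ± 0.094, edgeR adjusted p = 0.0131). DESeq2 did not call Nqo2 (adjusted p = 0.134), nor did edgeR when mtDNA 1 (0.0546) or blank 3 (0.0732) was left out, within 0.00833 to 0.574 over its alternatives. Nqo2 shares 18.3% of its windows with Serpinb6a. None of the 18 fell in edgeR (2 at an unadjusted p under 0.05, 0 in DESeq2 and 1 in limma-voom), beside 5.98% of all tested genes, while 6 did with library totals. The list median was -0.09.

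The levels of the 10 genes, as CPM per kb of exon, spanned nearly 2 orders of magnitude. Prdx1 led with 1438 ± 167 in mtDNA and 1269 ± 73.6 in blank libraries, followed by Hmox1 (438.0 ± 28.2 and 423.9 ± 12.6), Sqstm1 (206.8 ± 14.4 and 184.6 ± 5.25) and Srxn1 (106.8 ± 2.48 and 112.5 ± 1.95). Nqo1 (88.9 ± 1.16 in mtDNA and 95.1 ± 4.71 in blank libraries) and Gclm (79.5 ± 1.97 and 97.6 ± 1.57) came next, and in blank libraries these neighbours did not differ beyond their spread. Txnrd1 (61.8 ± 2.86 and 74.0 ± 1.72) and Slc7a11 (38.6 ± 1.94 and 41.9 ± 2.12) stood under them. Keap1 and Gclc were the lowest and exchanged places: Keap1 had 21.4 ± 0.694 in mtDNA and 15.9 ± 1.06 in blank libraries, and Gclc 16.6 ± 1.10 and 22.1 ± 2.51. The exon length merges all annotated transcripts of a gene, so genes with long rarely used exons are set too low.

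**Figure D3:**
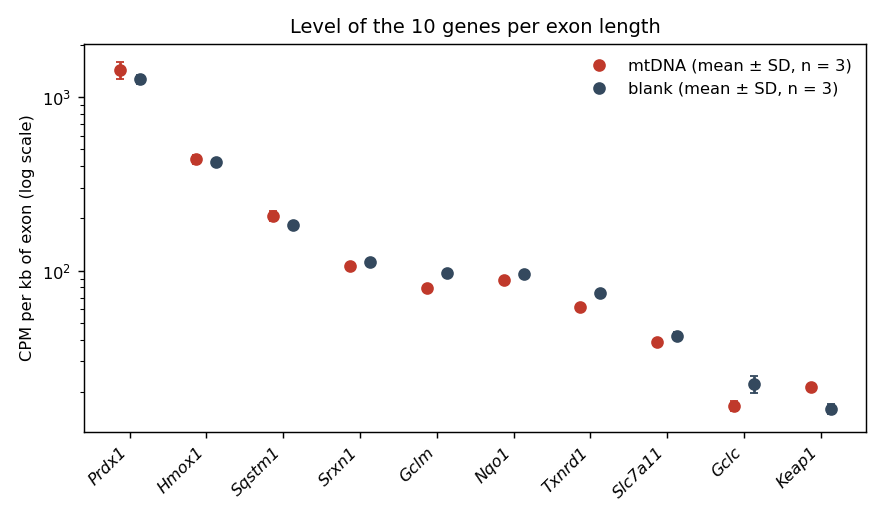
Level of the 10 genes as CPM per kb of exon on a log axis (mean ± SD, n = 3 libraries), mtDNA left of blank for each gene, ordered by the blank level. Prdx1 lies highest in both groups, and the order of Keap1 and Gclc at the low end is reversed between them.

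NADPH is the electron source of both the glutathione and the thioredoxin system. Of 13 tested genes for its supply, Mthfd2, a mitochondrial folate enzyme, rose (115.1 ± 4.48 CPM in mtDNA and 87.4 ± 4.82 CPM in blank libraries, log2 0.40 ± 0.066, edgeR adjusted p = 0.000106) and none fell in edgeR (5 at an unadjusted p under 0.05, 0 in DESeq2 and 0 in limma-voom), beside 11.9% and 5.98% of all tested genes. The falls depended on the scaling, with 6 under upper-quartile factors and 7 under library totals. G6pdx, the entry enzyme of the pentose phosphate pathway and a known NRF2 target, had log2 0.13 ± 0.049 (edgeR adjusted p = 0.0674, within 0.0473 to 1). Of 11 tested genes for removal of superoxide and peroxide, 2 fell, beside 5.98% of all tested genes. These were Cat, which encodes catalase (460.7 ± 15.6 CPM in mtDNA and 534.2 ± 4.01 CPM in blank libraries, log2 -0.21 ± 0.048, edgeR adjusted p = 0.00267), and Park7 (log2 -0.26 ± 0.074, edgeR adjusted p = 0.0176), which lost its call in DESeq2 (0.164) and on leaving out mtDNA 1 (0.0678), mtDNA 3 (0.0605) or blank 2 (0.0734), within 0.000853 to 1. None of these 11 rose in edgeR, beside 11.9% of all tested genes. At an unadjusted p under 0.05 there was 1 rise, and DESeq2 and limma-voom called 0.

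On the side of oxidant production, 3 of 8 tested genes of the phagocyte NADPH oxidase rose, beside 11.9% of all tested genes, and 1 rose with upper-quartile factors or library totals. Cybb, the catalytic subunit, had 1693, 1612 and 1671 CPM in mtDNA libraries, against 1216, 1131 and 1187 CPM in blank libraries, with a wide gap between the groups (log2 0.49 ± 0.045, edgeR adjusted p = 2.07e-08). Ncf1 and Cyba, the cytosolic organiser and the membrane partner, had log2 0.17 and 0.15 (edgeR adjusted p = 0.0132 and 0.0284). Ncf1 was not called under upper-quartile scaling (adjusted p = 0.146), under library totals (0.401) or when mtDNA 2 was left out (0.0541), within 0.00699 to 1. Cyba was not called under upper-quartile scaling (0.27), under library totals (0.637) or when mtDNA 1 (0.0621), mtDNA 3 (0.0895), blank 1 (0.141) or blank 3 (0.0682) was left out, within 0.00215 to 1. None of the 8 fell in edgeR, beside 5.98% of all tested genes, nor in DESeq2, limma-voom or at an unadjusted p under 0.05. With library totals 2 fell, beside 2356 of all 11190 tested genes.

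Among autophagy receptors and partners of p62, 4 of 18 tested genes rose, Sqstm1 included, and 1 fell, beside 11.9% and 5.98% of all tested genes. Trim21, an interferon-inducible ubiquitin ligase that acts on p62, rose by log2 1.40 ± 0.12 (edgeR adjusted p = 5.99e-09). Tbk1, the kinase that phosphorylates p62 and interferon regulatory factors, rose by 0.49 ± 0.061 (edgeR adjusted p = 2.98e-06), and Gabarapl1, an ATG8-family protein of autophagosomes, fell by 0.26 (edgeR adjusted p = 0.00506). Gabarapl1 shares 17.5% of its windows with 1700101I11Rik. In the list of targets of ATF4, the amino acid stress factor that also drives Slc7a11, 3 of 18 rose and 2 fell, beside 11.9% and 5.98% of all tested genes, and with library totals 2 rose and 7 fell. Atf3 rose by log2 0.66 ± 0.055 (edgeR adjusted p = 4.28e-09), and Slc1a5, a glutamine carrier, fell by 0.33 (edgeR adjusted p = 0.00285). Shmt2, a mitochondrial serine enzyme, had log2 -0.28 ± 0.089 (edgeR adjusted p = 0.0356), and it did not pass in DESeq2 (0.278) or in 5 of the 6 omissions of a library (adjusted p of up to 0.134, and 0.0684 without mtDNA 1), within 0.00249 to 0.961.

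**Figure D4:**
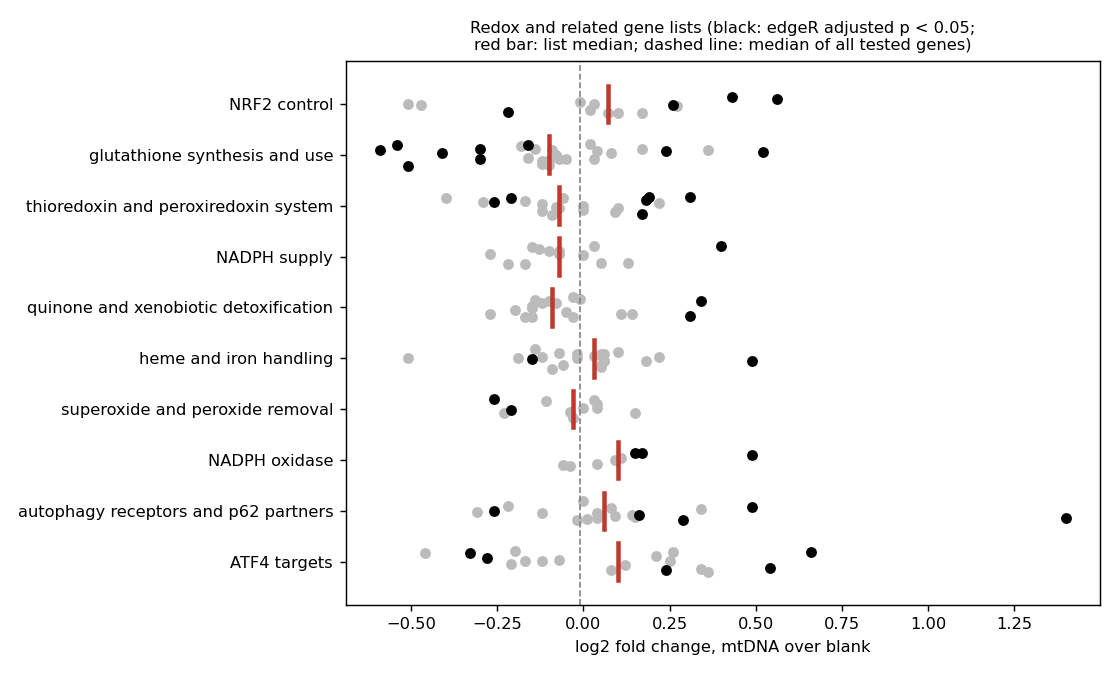
log2 fold change (mtDNA over blank) of each tested gene in 10 lists of redox and related genes; black points have an edgeR adjusted p under 0.05, red bars are list medians and the dashed line is the median of all tested genes, -0.01. List medians lie between -0.10 and 0.10, and glutathione synthesis and use holds 7 falls (Gclc and Gclm included) against 2 rises with TMM factors.

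Taking the 10 lists as a whole and leaving out the 10 genes above, 19 of 149 tested genes rose and 13 fell, beside 11.9% and 5.98% of all tested genes. With upper-quartile factors 15 of these genes rose and 29 fell, and with library totals 12 and 42. The balance thus turned under these scalings, as it did over all genes. The median of these 149 was -0.02.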

How the data were processed

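Messenger RNA of 6 libraries, prepared with a directional kit, was read single-end over 75 bases, per the labels' protocols. The deposited table holds raw read counts per gene. The authors aligned with STAR 2.7.10a to GRCm39, per the submitters' processing notes. Annotation release and strand setting: not given in the sources used here.

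Symbols came from GENCODE M21 (GRCm38; 52083 of 55359 IDs matched), as did exon lengths and shared 75-base windows. edgeR 4.0.16 (R 4.3.3) was run with its default filter, TMM factors and the two-sided quasi-likelihood test, with Benjamini-Hochberg adjustment over 11190 genes and a threshold of 0.05. CPM are TMM-scaled. Log2 fold changes are mtDNA minus blank. Alternatives included DESeq2 1.42.0 and limma 3.58.1 (voom). Tests were also run on simulated data with as many rises as falls, which does not check the choice of scaling.

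The members and lists were chosen with earlier results of these data known. The text names all 10 members, Nfe2l2, Bach1, Mafg, Acod1, Isg15, Rsad2 and, per list, up to 2 risen and 2 fallen genes with the smallest p. Gsta3, Gstp1, Abcc1, Gsr, Prdx2, Fth1, G6pdx, Cyba and the markers were named after their values were seen.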

Additional observations from a re-analysis of the deposited data

How the results depend on the processing

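The 17 alternatives were 3 other scalings, 2 other filters, DESeq2, robust dispersion, limma-voom, a 1.2-fold threshold test, removal of the GC trend, neighbouring title numbers as a block, and omission of each library. With library totals alone, all tested genes had 861 rises and 2356 falls, the 10 genes 1 and 6, and the lists together 13 and 48 (22 and 16 with TMM factors). With upper-quartile factors all genes had 1504 falls, the 10 genes 1 rise and 6 falls, and the lists 35 falls. Median-ratio factors gave 1318 rises and 665 falls over all genes, 2 and 3 among the 10, and 21 and 16 in the lists. The median of all tested genes was -0.09 with upper-quartile factors and -0.13 with library totals, beside -0.01 with TMM factors, so directions near 0 are relative to that shift: Hmox1 turned to -0.03 and -0.07, and, with single libraries omitted, ranged from -0.01 (without mtDNA 1) to 0.08, and Nfe2l2 to -0.01 and -0.05. Fth1 turned to -0.02 with library totals. Medians of the lists for NRF2 control, heme and iron, and autophagy receptors turned below 0 under both scalings, and those for NADPH oxidase and ATF4 targets under library totals. DESeq2 called 173 falls over all genes, 1 rise among the 10 genes and 9 falls in the lists. The test against a fold of 1.2 called 590 rises and 55 falls over all genes, 0 and 0 among the 10 (1 and 1 at an unadjusted p under 0.05), and 7 and 2 in the lists. Omitting a library gave 410 (without blank 3) to 522 falls over all genes, 437 without mtDNA 1, 1 to 3 rises among the 10 genes (1 without mtDNA 1, blank 2 or blank 3), and 10 (without mtDNA 2) to 14 falls in the lists. The labels share no replicate numbers. With neighbouring title numbers as a replicate block, the 10 genes had 3 rises and 3 falls and all genes 1387 and 747. Deviations of neighbours correlated at 0.04 in each pair, and those of the other pairs of an mtDNA and a blank library at -0.05 to 0.01. The causes of these shifts were not tested. Genes near 20 CPM, such as Gss and Glrx5, rest on fewer reads than the 10 genes and are less precisely measured.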

Other observations

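Ratios of RNAs within a library do not depend on the scaling between libraries. As reads per exon length, Mafk stood to Mafg at 0.493, 0.405 and 0.398 in mtDNA libraries, against 0.246, 0.258 and 0.243 in blank libraries. This ratio was separate between the groups, as it had to be with Mafk higher and Mafg lower without overlap. A small part of the Mafg count is uncertain because of Sirt7, and DESeq2 did not call the fall of Mafg (adjusted p = 0.0612). Maff, another small MAF gene, had 5.18 CPM in mtDNA and 7.36 CPM in blank libraries and was not called (log2 -0.51, edgeR adjusted p = 0.138). Prdx1 stood to Txnrd1 at 27.6, 21.9 and 20.7 in mtDNA libraries, against 17.8, 17 and 16.6 in blank libraries, the highest value being that of mtDNA 1. Bach1 stood to Nfe2l2 at 0.327, 0.322 and 0.348 in mtDNA libraries, against 0.282, 0.273 and 0.321 in blank libraries, with mtDNA 2 only just above blank 3. Keap1 stood to Sqstm1 at 0.0992, 0.106 and 0.106 in mtDNA libraries, against 0.0869, 0.0818 and 0.0897 in blank libraries. Keap1 RNA was thus higher relative to Sqstm1 RNA in each mtDNA library than in any blank library. These ratios were chosen after the values of the genes had been seen, and no test is given.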
